A study of Mus musculus with 6 samples.

Results

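The genes described here encode the subunits of the proteasome. They were taken as every gene symbol in the deposited table that starts with Psma, Psmb, Psmc or Psmd and ends in a number, which gave 39 of 24411 genes. By role, 14 encode the standard 20S core particle, 6 the ATPase subunits and 11 the non-ATPase subunits of the 19S regulatory particle, 3 the immunoproteasome (Psmb8, Psmb9 and Psmb10), 3 assembly chaperones of the 19S particle and 2 core subunits restricted to other tissues. All were measured by RNA-seq of rRNA-depleted total RNA from the livers of 6 mice at postnatal day 19, of which 3 were p62+/+ and 3 were p62S351E/+. The p62+/+ mice were wild type. The p62S351E/+ mice carried, beside a wild-type allele, an Sqstm1 allele in which Ser351 of p62 is replaced by Glu, a mimic of phosphorylation that strengthens the binding of p62 to KEAP1 and so releases the transcription factor NRF2. The edited allele came from prime editing of a C57BL/6N-derived embryonic stem cell line, and heterozygotes were bred by in vitro fertilization with sperm of a single male chimera of low chimerism.

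The proteasome is the protease that degrades ubiquitin-tagged proteins. Its barrel-shaped core consists of outer rings of alpha subunits, which form the gate, and inner rings of beta subunits, of which Psmb5, Psmb6 and Psmb7 carry the catalytic sites. The 19S particle caps the core. Its ATPases unfold the substrate and open the gate, and its non-ATPase subunits bind ubiquitin chains and remove them. In cells exposed to interferon, and in immune cells, Psmb8, Psmb9 and Psmb10 take the place of the standard catalytic subunits. Genes of the proteasome are known to be induced together by the transcription factor NRF1 (Nfe2l1) when proteasome activity falls, and some have been described as targets of NRF2.

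Total estimated counts per library lay between 8696712 and 10341622, but Rn45s, Lars2 and Mir6236 took most of them, and between 134911 and 315436 counts remained for all other genes. The proteasome genes together had between 204 and 650.37 counts per mouse. Values below are normalized counts, scaled by edgeR's TMM factors, on which 1 count was worth between 0.775 (p62S351E/+ mouse 3) and 1.9 (p62S351E/+ mouse 1). Where values are listed per genotype, they are in the order of mice 1, 2 and 3. Exon bases of 10 of the 39 genes are shared with another annotated gene. The libraries of p62S351E/+ mice 1 and 2 stood apart from the other libraries. The summed counts of 10 brain markers were 2274, 2438 and 2109 in p62+/+ mice, against 2277 in p62S351E/+ mouse 3, but 3 and 7 in p62S351E/+ mice 1 and 2. Xist, transcribed from the inactive X chromosome, had 1 and 0 counts in p62S351E/+ mice 1 and 2. It had 70.81 in p62+/+ mouse 1 and between 1070.65 and 1537 in the remaining mice. The part of these differences in the results below was not tested. A fit with the summed brain-marker level as a covariate was among the alternatives. Fits without both libraries leave mouse 3 as the only p62S351E/+ mouse, so they hold no spread within that genotype. Values from them are given for every tested proteasome gene whose fold change then turned in sign and beside several others. All 10 hepatocyte markers were detected in every library, with summed normalized counts of 15000, 14000 and 14600 in p62+/+ mice, against 21100, 33900 and 15000 in p62S351E/+ mice. In bulk liver, fewer cells of a type and less RNA per cell cannot be told apart.

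No proteasome gene differed significantly between the genotypes. Of the 39 genes, 29 had enough counts to be tested, and 0 were called higher and 0 lower in p62S351E/+ mice at an adjusted p below 0.05 (edgeR's quasi-likelihood test, Benjamini-Hochberg over the 5945 genes tested). Over all genes tested, 0.841% were called higher and 0.0841% lower, so that a count of 0 among 29 genes is near that background. At an unadjusted p below 0.05, 1 of the 29 passed (3.45%, against 14.6% of all genes tested), and DESeq2 gave 0 at either threshold. The 29 log2 fold changes ran from -1.01 (Psmc2) to 0.63 (Psmd7), 13 above 0 and 16 below, with a median of -0.13 beside -0.03 for all genes tested. The precision was limited. Standard errors ran from 0.24 to 0.59 with a median of 0.37, and the 95% intervals of only 10 genes lay between -1 and 1. The interval of 8 genes included a log2 rise of 1 and that of 12 a log2 fall of 1, so changes of that size are not excluded for them at this depth. Without p62S351E/+ mice 1 and 2, only mouse 3 was left in that genotype, and 7 of the 29 fold changes turned in sign. They were then 0.07 for Psma2, -0.06 for Psma4, 0.38 for Psma5, -0.12 for Psmb4, 0.16 for Psmc5, 0.11 for Psmd6 and 0.45 for Psmd12. The median of the proteasome fold changes was -0.03 over the 33 genes then tested. Among the tested genes, 1 (Psmd13) passed the filter on low counts through its p62+/+ libraries alone, and 0 did so through the p62S351E/+ libraries alone. The filter leaned on the p62+/+ libraries more widely than this. For 22 genes, all 3 p62+/+ libraries but not all 3 p62S351E/+ libraries had 10 or more counts.

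**Figure D1:**
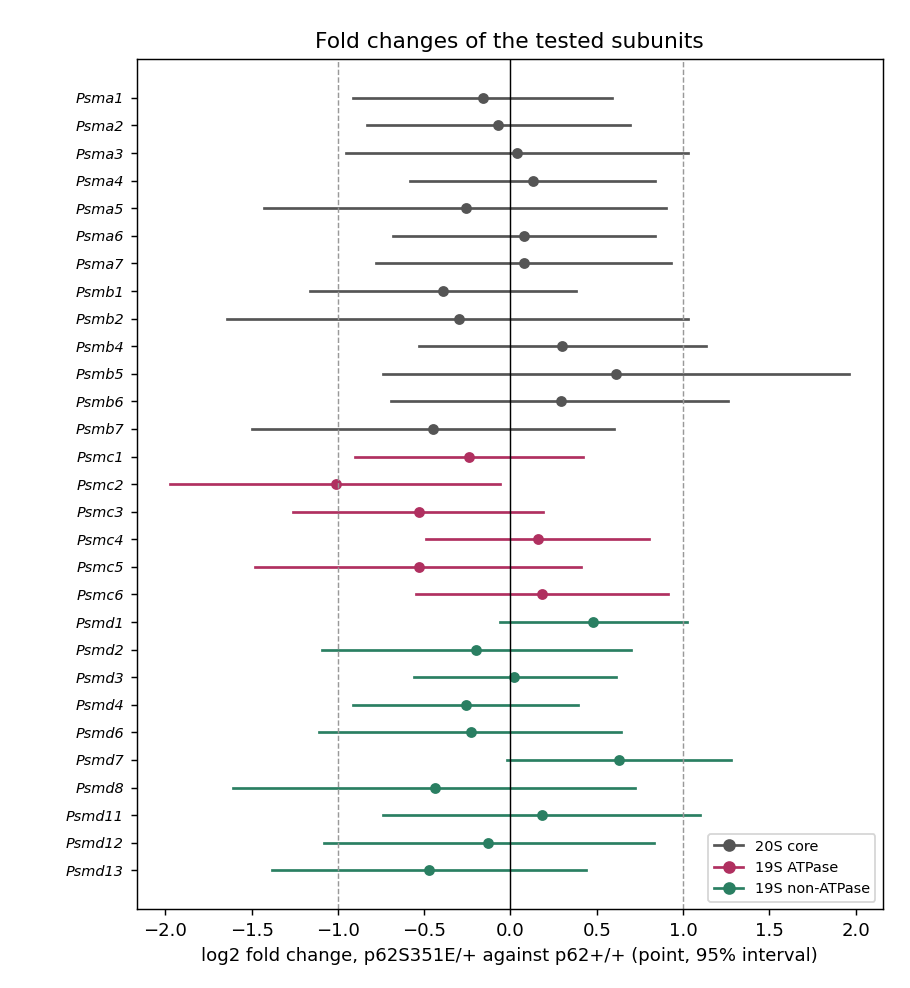
Log2 fold changes of the 29 tested proteasome genes in p62S351E/+ against p62+/+ livers (x axis), 1 gene per row and coloured by role, with points for the estimates of edgeR and lines for their 95% intervals. Dashed lines mark log2 fold changes of -1 and 1. The interval of Psmc2 alone lies to the side of 0, and those of the other 28 genes include it.

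Every mouse of one genotype exceeded every mouse of the other in 4 of the 29 genes. Psmd1 and Psmd7 were higher in p62S351E/+ mice (2 genes, 6.9%, against 12.0% of all genes tested), and Psmc2 and Psmc3 were lower (2 genes, 6.9%, against 14.7%). These shares did not exceed the background. All 4 belong to the 19S particle, and they are described with it.

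The alpha subunits of the core did not differ between the genotypes beyond the spread of the mice. All 7, Psma1 to Psma7, were tested, with log2 fold changes between -0.26 (Psma5) and 0.13 (Psma4) and a median of 0.04. Their summed normalized counts were 89.1, 86.2 and 91.6 in p62+/+ mice, against 68.6, 95.8 and 99.2 in p62S351E/+ mice. The groups overlapped, with p62S351E/+ mouse 1 lowest and mouse 3 highest. Psma4, with 15.5 ± 1.66 normalized counts (SD, n = 3) in p62+/+ and 16.9 ± 5.04 (SD, n = 3) in p62S351E/+ mice, had one of the narrower intervals, from -0.58 to 0.84 on the log2 scale. Psma5 had 8.40 ± 0.329 and 6.56 ± 3.76 normalized counts (SD, n = 3 each), and its wider interval ran from -1.43 to 0.90. Its log2 fold change of -0.26 turned to 0.38 without p62S351E/+ mice 1 and 2.

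The 7 standard beta subunits, Psmb1 to Psmb7, varied more among themselves. Psmb3 had 3 or 4 counts in p62S351E/+ mouse 1 and p62+/+ mouse 3 and was not tested, and the log2 fold changes of the other 6 lay between -0.45 (Psmb7) and 0.61 (Psmb5), with 3 above 0 and a median of -0.01. Psmb5, which carries the chymotrypsin-like site and is the target of bortezomib, had 6.72, 6.21 and 8.64 normalized counts in p62+/+ mice, against 1.9, 15.1 and 13.8 in p62S351E/+ mice. The p62S351E/+ mice lay on both sides of the p62+/+ mice, and the value of mouse 1 was a single count. Its log2 fold change of 0.61 ± 0.59 (SE, 95% interval -0.74 to 1.96) had an adjusted p of 0.620 (edgeR).

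Psmb6, the subunit with the caspase-like site, had 13.6, 19.4 and 6.05 normalized counts in p62+/+ mice, against 13.3, 18.9 and 15.5 in p62S351E/+ mice, a log2 fold change of 0.29 ± 0.43 (SE, adjusted p = 0.752, edgeR). Psmb7, with the trypsin-like site, had 12.8, 20.2 and 17.3 normalized counts in p62+/+ mice, against 3.81, 15.1 and 16.3 in p62S351E/+ mice, a log2 fold change of -0.45 ± 0.46 (SE, adjusted p = 0.636, edgeR). Both sets overlapped, and the lowest Psmb7 value, in p62S351E/+ mouse 1, came from 2 counts. Psmb1, a non-catalytic beta subunit, was among the 8 tested genes with the lowest p. It had 18.5, 13.2 and 14.7 normalized counts in p62+/+ mice, against 7.62, 13.9 and 13.2 in p62S351E/+ mice, a log2 fold change of -0.39 ± 0.34 (SE, adjusted p = 0.592, edgeR). Only p62S351E/+ mouse 1 lay well below the other mice. Psmb2 and Psmb4, likewise without a catalytic site, had log2 fold changes of -0.30 and 0.30, and that of Psmb4 turned to -0.12 without p62S351E/+ mice 1 and 2.

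**Figure D2:**
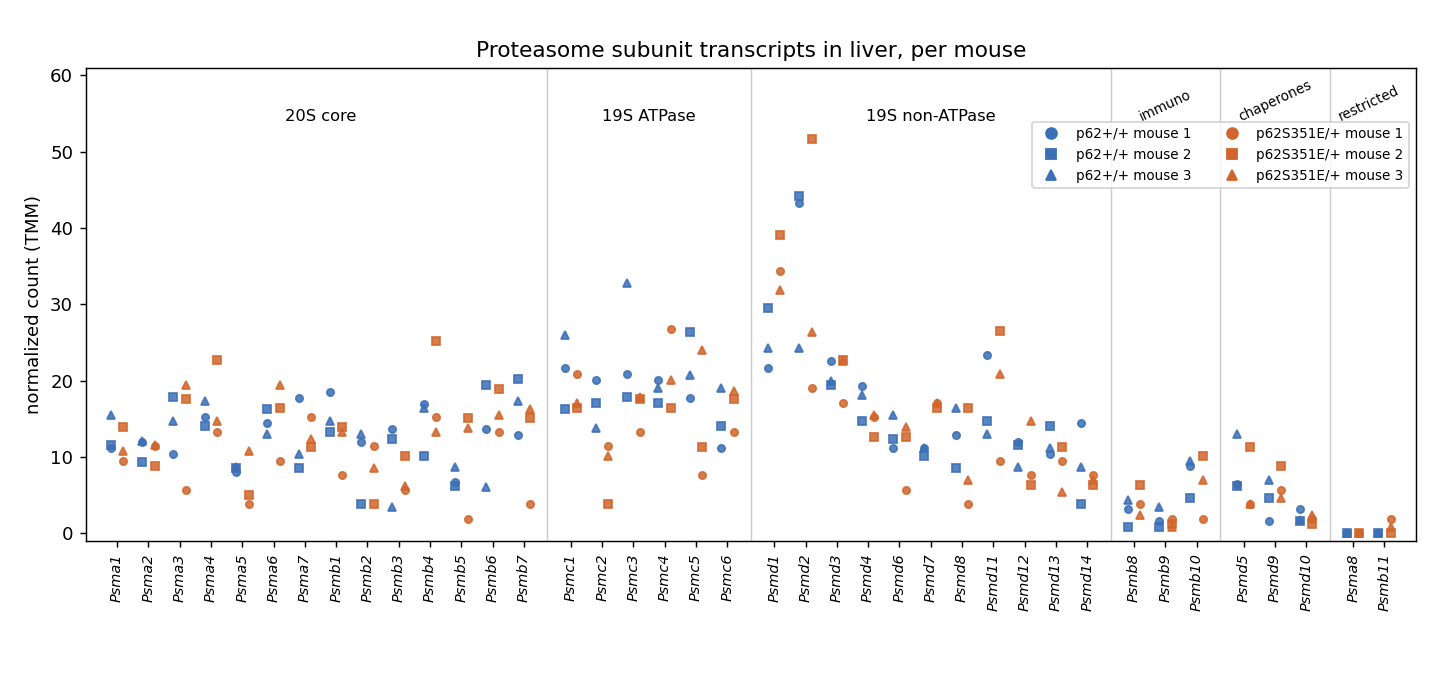
Normalized counts (y axis, scaled by TMM) of all 39 proteasome genes in each mouse, grouped by role, with p62+/+ mice in blue, p62S351E/+ mice in orange and a marker shape for each mouse number. The genotypes are intermixed for most genes, and the immunoproteasome genes, the assembly chaperones and the tissue-restricted genes at the right lie below 15 normalized counts.

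The ATPase subunits had the lowest median among the groups with tested members, at -0.39 over 6 genes, of which 4 were below 0. Psmc2 showed the largest difference of any proteasome gene. It had 20.1, 17.1 and 13.8 normalized counts in p62+/+ mice, against 11.4, 3.78 and 10.1 in p62S351E/+ mice. Every p62S351E/+ mouse was below every p62+/+ mouse, and the lowest value, in mouse 2, came from 3 counts. The mean was 17.0 ± 3.12 (SD, n = 3) in p62+/+ and 8.43 ± 4.08 (SD, n = 3) in p62S351E/+ mice, a log2 fold change of -1.01 ± 0.42 (SE, 95% interval -1.97 to -0.06), short of the threshold (adjusted p = 0.321, edgeR). Without p62S351E/+ mice 1 and 2 the log2 fold change was -0.74, and over all alternatives it ran from -1.65 to -0.66.

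Psmc3 had 20.9, 17.9 and 32.8 normalized counts in p62+/+ mice, against 13.3, 17.6 and 17.8 in p62S351E/+ mice. The groups were separated only narrowly, by p62+/+ mouse 2 and p62S351E/+ mouse 3, and p62+/+ mouse 3 was well above all others. Its log2 fold change was -0.53 ± 0.32 (SE, adjusted p = 0.455, edgeR), -0.40 without p62S351E/+ mice 1 and 2 and -0.23 without p62+/+ mouse 3. Some of its exon bases overlap Slc39a13 on the opposite strand, and the library kit was not stated to keep the strand.

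The result for Psmc5 depended on single libraries. It had 17.7, 26.4 and 20.7 normalized counts in p62+/+ mice, against 7.62, 11.3 and 24.0 in p62S351E/+ mice. Mice 1 and 2 lay below every p62+/+ mouse and mouse 3 lay among them. The log2 fold change was -0.53 ± 0.41 (SE, adjusted p = 0.556, edgeR) and turned to 0.16 without p62S351E/+ mice 1 and 2. Without p62S351E/+ mouse 3, the fold change was -1.15 and Psmc5 was called lower (adjusted p = 0.0457, edgeR), in a fit that called 447 genes higher and 994 lower in the whole table. Psmc1, Psmc4 and Psmc6 had log2 fold changes of -0.24, 0.16 and 0.18, each within its standard error of 0.28 to 0.32.

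Summed over the 6 ATPases, normalized counts were 112, 109 and 131 in p62+/+ mice, against 93.3, 83.2 and 108 in p62S351E/+ mice. The groups did not overlap, but p62S351E/+ mouse 3 (108, counting interval 90.5 to 127) and p62+/+ mouse 2 (109, counting interval 91.4 to 128) were nearly equal. The means were 117 ± 12.3 and 94.7 ± 12.3 (SD, n = 3 each). The libraries with next to no brain-marker counts were the lowest here, and their part in this difference was not tested. The median log2 fold change of the ATPases was -0.09 without them, and -0.15 without p62+/+ mouse 3. With the summed brain-marker level as a covariate it was -0.12.

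The non-ATPase subunits make up the lid of the 19S particle and, together with the ATPases, its base. Their summed normalized counts were 202, 183 and 171 in p62+/+ mice, against 147, 222 and 182 in p62S351E/+ mice. The groups overlapped, with p62S351E/+ mice holding both the lowest and the highest value. Of 11 genes, 10 were tested, with 4 above 0, 6 below and a median of -0.16. Psmd7, a lid subunit that pairs with the deubiquitinase Psmd14, varied little among mice of a genotype. It had 11.2, 10.1 and 11.2 normalized counts in p62+/+ mice, against 17.1, 16.4 and 17.0 in p62S351E/+ mice. All 3 p62S351E/+ mice were above all p62+/+ mice, although these values rest on 9 to 22 counts each. The means were 10.9 ± 0.658 and 16.9 ± 0.414 (SD, n = 3 each), and the log2 fold change was 0.63 ± 0.28 (SE, 95% interval -0.02 to 1.28, adjusted p = 0.356, edgeR), and 0.66 without p62S351E/+ mice 1 and 2.

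Psmd1, the large base subunit that serves as a scaffold, had 21.7, 29.5 and 24.2 normalized counts in p62+/+ mice, against 34.3, 39.1 and 31.8 in p62S351E/+ mice. The groups did not overlap. The means of 25.1 ± 4.0 and 35.0 ± 3.71 (SD, n = 3 each) gave a log2 fold change of 0.48 ± 0.24 (SE, 95% interval -0.06 to 1.02, adjusted p = 0.385, edgeR), and 0.35 without p62S351E/+ mice 1 and 2. With library size as the only scaling, Psmd1 and Psmd7 stood at -0.19 and -0.02, where the median of all genes was -0.68. Some exon bases of Psmd1 are shared with another annotated gene on the same strand, Gm21972.

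Psmd13, a lid subunit, had 10.4, 14.0 and 11.2 normalized counts in p62+/+ mice, against 9.52, 11.3 and 5.42 in p62S351E/+ mice. The groups overlapped, with p62S351E/+ mouse 3 lowest. Its log2 fold change was -0.47 ± 0.40 (SE, adjusted p = 0.582, edgeR) and -1.11 without p62S351E/+ mice 1 and 2. Psmd2, the other large scaffold of the base, lay between 19 and 51.7 normalized counts, with both extremes in p62S351E/+ mice, and had a log2 fold change of -0.20 ± 0.39 (SE). Psmd4, a receptor for ubiquitin chains, had 17.4 ± 2.35 and 14.4 ± 1.60 normalized counts (SD, n = 3 each) and a log2 fold change of -0.26 ± 0.28 (SE). The lid subunits Psmd3, Psmd6, Psmd8, Psmd11 and Psmd12 had log2 fold changes between -0.44 (Psmd8) and 0.18 (Psmd11). Psmd14, which removes ubiquitin chains from substrates, had 4 to 18 counts per mouse and was not tested.

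The assembly chaperones Psmd5, Psmd9 and Psmd10 help the ATPase ring to form and are not part of the finished proteasome. They were low, and 0 of the 3 were tested. Psmd5 had 8, 8 and 15 counts in p62+/+ and 2, 9 and 5 counts in p62S351E/+ mice. Psmd9 had 2, 6 and 8 counts and 3, 7 and 6 counts, respectively. Psmd10 had 4, 2 and 2 counts in p62+/+ mice, against 1, 1 and 3 in p62S351E/+ mice, at or near the floor of 3 counts throughout. Their summed normalized counts of 15.1 ± 5.67 and 14.6 ± 5.94 (SD, n = 3 each) overlapped.

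The immunoproteasome genes were low in both genotypes. Psmb8, the counterpart of Psmb5, had 4, 1 and 5 counts in p62+/+ mice, against 2, 5 and 3 counts in p62S351E/+ mice. Psmb9, the counterpart of Psmb6, had 2, 1 and 4 counts in p62+/+ mice, against a single count in each p62S351E/+ mouse. Psmb10, the counterpart of Psmb7, had 11, 6 and 11 counts in p62+/+ mice, against 1, 8 and 9 counts in p62S351E/+ mice. The low value of 1 fell in p62S351E/+ mouse 1, the library with the fewest counts outside the 3 dominant genes. None of these genes passed the filter, so 0 of the 3 were tested. Summed over the 3, normalized counts were 13.6, 6.21 and 17.3 in p62+/+ and 7.62, 17.6 and 10.1 in p62S351E/+ mice (12.4 ± 5.64 and 11.8 ± 5.22, SD, n = 3 each), and the groups overlapped.

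Set against its counterpart per base of transcript, each immunoproteasome gene was the lower of its pair when the counts of a genotype were pooled. The ratio of Psmb8 to Psmb5 was 0.209 in p62+/+ and 0.180 in p62S351E/+ mice, and that of Psmb9 to Psmb6 was 0.0843 and 0.0422. Psmb10 came closest to its counterpart, with a ratio to Psmb7 of 0.400 in p62+/+ and 0.455 in p62S351E/+ mice. Per mouse, the ratio was below 1 in all 6 mice for Psmb9 and Psmb10, and in 5 of 6 for Psmb8, where the ratio of 1.1 in p62S351E/+ mouse 1 came from 2 counts over 1. The groups overlapped for each pair. As shares of the pair's counts, without correction for length, Psmb8 took 27.8% (exact binomial 95% interval 14.2 to 45.2) in p62+/+ and 24.4% (12.4 to 40.3) in p62S351E/+ mice. Psmb9 took 12.5% (5.18 to 24.1) and 6.67% (1.40 to 18.3), and Psmb10 took 31.1% (21.8 to 41.7) and 34.0% (21.5 to 48.3). These intervals overlap widely and cover counting error only. Psmb9 shares 212 of its 1352 exon bases with Tap1, Psmb8 186 of 1628 with Gm20496 and Psmb7 405 of 1160 with Nek6, each on the opposite strand, and reads in these stretches cannot be told apart without strand. Psmb5 shares 109 of its 899 exon bases with Mir686 on the same strand.

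Markers of leukocytes, cells in which the immunoproteasome is abundant, were scarce in both genotypes. The part of this in the low immunoproteasome counts was not tested. Summed over 10 markers, normalized counts were 14.4, 18.6 and 13.8 in p62+/+ and 24.8, 16.4 and 28.7 in p62S351E/+ mice, 8 of the 10 were at 0 in at least 1 library, and Cd3g and Nkg7 were at 0 in every library. Of 10 genes of interferon signalling and antigen presentation, 7 were tested, and 0 were called higher and 0 lower, with 6 above 0 and a median log2 fold change of 0.41. B2m, the light chain of MHC class I, had a log2 fold change of 0.41 ± 0.26 (SE, adjusted p = 0.479, edgeR), and 0.15 without p62S351E/+ mice 1 and 2. The heavy chain genes H2-K1 and H2-D1 had log2 fold changes of 0.04 and 0.43 (-0.61 and -0.17 without p62S351E/+ mice 1 and 2), and their counts were partly divided among related genes. Of the other marker lists, macrophage markers summed to 123, 101 and 124 normalized counts in p62+/+ mice, against 160, 160 and 124 in p62S351E/+ mice, endothelial markers to between 232 and 331 and between 218 and 308, and erythroid markers to between 137 and 197 and between 58.5 and 133. Of the 10 macrophage markers, 6 were tested, and 0 were called higher and 0 lower. Marco, named after its values were seen, had 1.39 ± 1.04 and 17.5 ± 5.14 normalized counts (SD, n = 3 each) and was not tested. Clec4f, a marker of Kupffer cells, had 21.8 ± 3.23 and 14.7 ± 2.83 (adjusted p = 0.408, edgeR).

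The core subunits restricted to other tissues were at the limit of detection. Psma8, known from the testis, had 0 counts in all 6 libraries, which allows up to 3 counts, or 2.32 to 5.71 normalized counts, per library. Psmb11, known from the cortical epithelium of the thymus, had 1 count each in p62S351E/+ mice 1 and 3 and 0 in the other 4 mice.

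**Figure D3:**
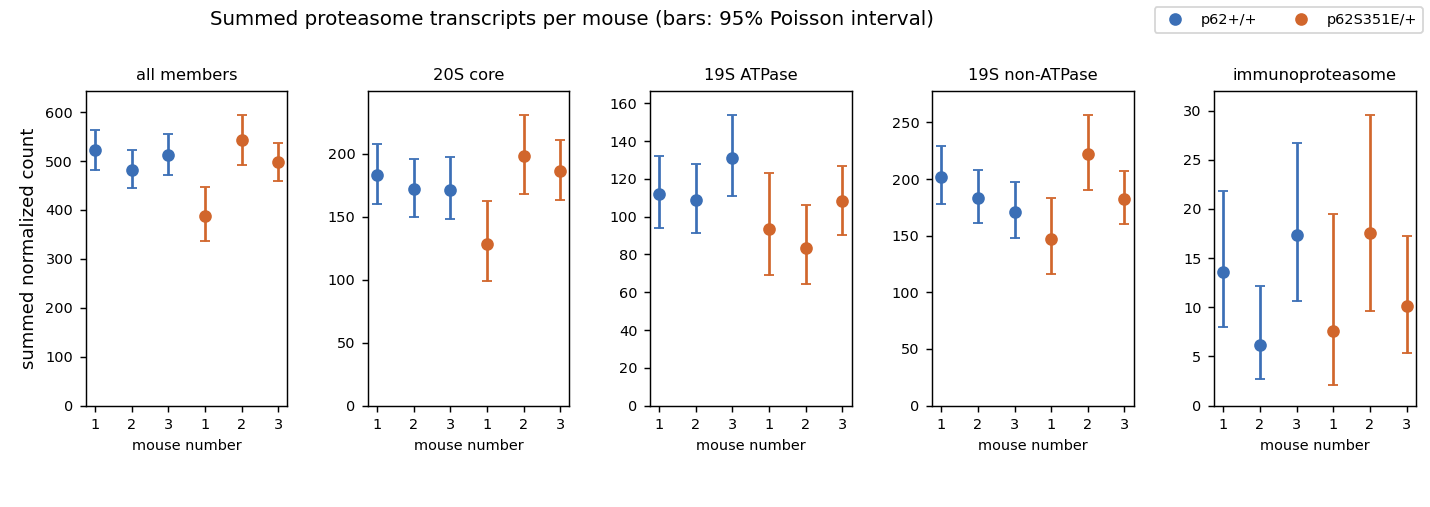
Summed normalized counts (y axes, from 0) of all 39 proteasome genes and of the core, ATPase, non-ATPase and immunoproteasome genes in each mouse (x axes, mouse number), with p62+/+ in blue, p62S351E/+ in orange and bars for the 95% Poisson interval of counting. The sum over all genes is lowest in p62S351E/+ mouse 1, at 388, and the ATPase panel is the only one in which the genotypes do not overlap.

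Over all 39 genes, the sum was 522, 482 and 512 normalized counts in p62+/+ mice, against 388, 542 and 497 in p62S351E/+ mice. The groups overlapped (505 ± 20.8 and 476 ± 78.8, SD, n = 3 each), and p62S351E/+ mouse 1 was the lowest, with a counting interval of 337 to 446. This comparison depended on the scale. As a percentage of all counts left after Rn45s, Lars2 and Mir6236 were set aside, the sum was 0.219, 0.207 and 0.218 in p62+/+ mice, against 0.151, 0.186 and 0.204 in p62S351E/+ mice. The groups did not overlap on this scale, but only narrowly. The counting intervals were 0.188 to 0.22 for p62S351E/+ mouse 3 and 0.191 to 0.224 for p62+/+ mouse 2. Shares of the parts of the proteasome overlapped between the genotypes. The standard core made up 34.7% ± 1.16 of the proteasome counts in p62+/+ and 35.6% ± 2.40 in p62S351E/+ mice, the ATPases 23.2% ± 2.20 and 20.3% ± 4.48, the non-ATPase subunits 36.7% ± 2.90 and 38.4% ± 2.24, and the immunoproteasome 2.42% ± 1.05 and 2.41% ± 0.730 (SD, n = 3 each). The ratio of ATPase to core counts was 0.609, 0.633 and 0.768 in p62+/+ mice, against 0.731, 0.420 and 0.580 in p62S351E/+ mice, so that the ATPase sum, whose groups did not overlap, did overlap once it was set against the core.

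Levels between genes were compared only per kilobase of transcript. In p62+/+ mice, the highest were the ATPase Psmc5, at 16.4 normalized counts per kilobase, Psmb6 at 16.3, Psmc3 at 14.6, Psmb7 at 14.5 and Psma6 at 14.0. The lowest detected genes were Psmb9 at 1.44, Psmd10 at 1.51, Psmd9 at 1.69, Psmb8 at 1.70 and Psmd5 at 1.94, so that the 19S chaperones and 2 of the immunoproteasome genes lay below every standard core, ATPase and non-ATPase subunit. Psmb10, at 5.84, lay among the standard subunits. Psma2 and Psma3, at 3.83 and 5.03, were the lowest of the core genes on this scale. The reference transcripts used for their lengths, of 2911 and 2846 bases, are far longer than those of the other alpha genes, and shorter forms would raise both values.

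**Figure D4:**
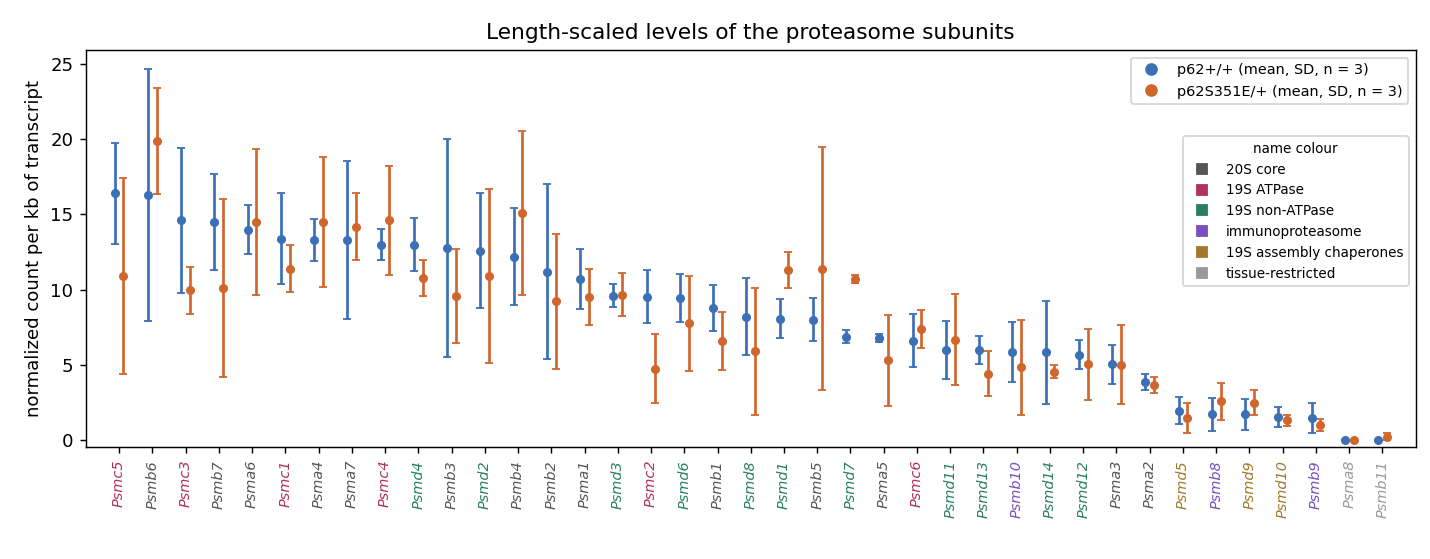
Normalized counts per kilobase of transcript (y axis) for all 39 proteasome genes, ordered by their mean in p62+/+ mice, with blue points for p62+/+ and orange points for p62S351E/+ means, bars for the SD (n = 3) and gene names coloured by role. Psmc5 and Psmb6 lie highest and the bars of most neighbouring genes overlap, while the chaperones, Psmb8, Psmb9 and the tissue-restricted genes stand at the right with means below 3.

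Because NRF2 is the factor that the study followed, promoters were searched for the core of its binding element. The letters TGACNNNGC were looked for on both strands of the RefSeq promoter windows (GRCm38.p6, the build of mm10), from 250 bases upstream to 50 bases downstream of the annotated start. Of the 39 genes, 32 had such a window and 5 of them (15.6%) held the motif, against 14.0% of all 27025 genes in the table. The share among proteasome genes is near that of all genes. The 5 matches are shown with their surrounding 30 bases on the strand of the gene, the match in capitals, to let the letters around each be compared.
Psmb5 (chr14:54618023-54618052, minus strand): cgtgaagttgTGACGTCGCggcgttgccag
Psmb6 (chr11:70525327-70525356, plus strand): acagaggcggactaaagagagTGACGGAGC
Psmc6 (chr14:45329587-45329616, plus strand): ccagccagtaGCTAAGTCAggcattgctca
Psmd12 (chr11:107479278-107479307, plus strand): tctGCTGTGTCAcatttgcccccctcagac
Psmd9 (chr5:123228149-123228178, plus strand): atctagccggTGACCCCGCccacttccaag
In Psmc6 and Psmd12 the match is on the strand opposite to the gene, and it lies 227 to 219 and 247 to 239 bases upstream of the start, while that of Psmb6 ends at the base before the annotated start. Psmd9 was not tested. The log2 fold changes of the 4 tested genes among them were 0.61 ± 0.59 (Psmb5), 0.29 ± 0.43 (Psmb6), 0.18 ± 0.32 (Psmc6) and -0.13 ± 0.42 (Psmd12, SE each). Without p62S351E/+ mice 1 and 2 these were 0.98, 0.24, 0.35 and 0.45. Whether genes with the motif differ in fold change from those without it was not tested. A match of these letters is a description of the sequence and does not show a bound site.

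Other genes of the ubiquitin-proteasome system were taken from lists. Of 5 activators and inhibitors that bind the core, 3 were tested and 0 were called higher or lower. Psme1, of the interferon-induced activator, had a log2 fold change of 0.23, Psme4 of 0.29, and the nuclear activator Psme3 of -0.91 ± 0.48 (SE, adjusted p = 0.414, edgeR). Of 5 chaperones that assemble the core only Pomp was tested, at 0.05. Of 8 further 19S subunits and bound enzymes, 6 were tested and 0 were called, with log2 fold changes of 0.29 for the ubiquitin ligase Ube3a, -0.09 for Ube3c and 0.06 for AI314180, which encodes the proteasome adaptor ECPAS. Without p62S351E/+ mice 1 and 2 these were -0.04, -0.21 and -0.28, and that of Psme3 was -0.26.

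Of 16 genes of ubiquitin itself, its activating enzymes and its shuttle factors, 15 were tested and 0 were called, with 9 above 0 and a median of 0.18. Ubb, which encodes a polyubiquitin precursor, had 223, 217 and 209 normalized counts in p62+/+ mice, against 136, 137 and 182 in p62S351E/+ mice. It was lower in each p62S351E/+ mouse than in every p62+/+ mouse, as were 14.7% of all genes tested. Its log2 fold change was -0.50 ± 0.21 (SE, adjusted p = 0.321, edgeR). The counts of Ubb held fractions in all 6 libraries, because RSEM splits a read that matches more than 1 gene. Vcp, the segregase that extracts ubiquitinated proteins, had a log2 fold change of 0.24. Without p62S351E/+ mice 1 and 2, the values of Ubb and Vcp were -0.24 and -0.05.

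Of 5 genes of the NRF1 pathway, 4 were tested and 0 were called. Nfe2l1, which encodes NRF1, had 61.8, 53.6 and 65.6 normalized counts in p62+/+ mice, against 34.3, 32.8 and 59.6 in p62S351E/+ mice. Mice 1 and 2 lay below every p62+/+ mouse and mouse 3 among them, the same split of mice as for Psmc5 and for the brain markers, whose part in it was not tested. The log2 fold change was -0.50 ± 0.28 (SE, adjusted p = 0.432, edgeR), and 0.00 without p62S351E/+ mice 1 and 2. Ddi2, the protease that activates NRF1, had a log2 fold change of 0.06, and Sel1l, a component of the machinery that retrotranslocates it, of 0.28, and without both libraries these were -0.10 and -0.26.

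For scale, the NRF2 targets that the study measured by qRT-PCR in livers of younger mice were read from the same RNA-seq fit. Gstm1 (glutathione S-transferase) had a log2 fold change of 3.59 (adjusted p = 0.00051) and Ugdh of 2.55 (adjusted p = 0.00602), both called higher by edgeR. Nqo1 had 3.93 (adjusted p = 0.067, edgeR) and Sqstm1, the gene encoding p62, 0.30 (adjusted p = 0.498, edgeR), which did not pass. For both of these genes every p62S351E/+ mouse exceeded every p62+/+ mouse, as for 12.0% of all genes tested.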

How the data were processed

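Liver total RNA was depleted of rRNA, and libraries were made with the NEBNext Ultra II kit and sequenced as single-end reads. Per the labels and methods, reads were trimmed (Trim Galore) and mapped with STAR to mm10 by the authors, who deposited RSEM expected counts per gene symbol, not normalized. Versions and annotation were not given in the sources used here. Every column matched 1 sample label. For testing, these values were rounded (6.45% of nonzero values were not whole, and among the proteasome genes only those of Psmb5).

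Genes were filtered by filterByExpr (minimum count 10), scaled by TMM and tested with edgeR 4.0.16 (quasi-likelihood, robust, legacy set to FALSE) in R 4.3.3, genotype as the only term, 3 against 3 mice. A gene was called at an adjusted p below 0.05. The scripts were tested on simulated data. An exact permutation test of 3 against 3 reaches 0.1 at best (two-sided), so none was used. Alternatives were DESeq2 1.42.0, limma-voom (limma 3.58.1), other scalings and filters, a replicate block, a brain-marker covariate and leaving libraries out (for the genes of other lists, chosen after seeing the data). Lengths and overlaps came from GENCODE annotation of GRCm38 (longest principal transcript), promoters from RefSeq.

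Members, gene lists and tests were chosen with earlier results of these data known. All members are named, with values per mouse for the 8 lowest p, the immunoproteasome genes and their counterparts, and genes at or under 3 counts in all libraries of a genotype. Other genes are those called and up to 3 with the highest counts per list. Values of 1 such gene are not reported here.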

Additional observations from a re-analysis of the deposited data

How the results depend on the processing

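No proteasome gene was called higher under any alternative, and 1 was called lower under 1 of them. Leaving out each mouse gave 0 to 1 genes called lower, the 1 being Psmc5 without p62S351E/+ mouse 3. The medians of the log2 fold changes moved more than the calls. With library size as the only scaling they were -0.70 for all tested proteasome genes, -0.60 for the core, -0.96 for the ATPases and -0.71 for the non-ATPase subunits, where the median of all genes was -0.68, so that the proteasome genes differed from it by -0.02. With the summed brain-marker level as a covariate they were 0.05 for all, -0.12 for the ATPases and 0.13 for the non-ATPase subunits. Without p62S351E/+ libraries 1 and 2, which leaves only mouse 3 of that genotype, they were -0.09 for the ATPases and 0.11 for the non-ATPase subunits. limma-voom gave 0.01 for the non-ATPase subunits. Leaving out each mouse gave medians from -0.42 to -0.15 for the ATPases and from -0.17 to 0.04 for the non-ATPase subunits. The cause was not tested in these cases.

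Without length correction the ratios of Psmb8 to Psmb5, Psmb9 to Psmb6 and Psmb10 to Psmb7 were 0.379, 0.143 and 0.452 in p62+/+ and 0.325, 0.0714 and 0.514 in p62S351E/+ mice. With at least 10 counts in every library only 4 proteasome genes remained and the core had no value. The immunoproteasome genes had a fold change only without a filter, with a median of -0.22. DESeq2 gave no adjusted p for 13 of the 29 genes. A required absolute log2 fold change above 1 changed no call.

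Same-numbered mice are different animals and did not deviate together (correlations 0.076, -0.091 and -0.001). With a replicate block, 0 proteasome genes were called, their median was -0.17, and the whole table had 18 higher and 1 lower calls against 50 and 5. With 204 to 650.37 proteasome counts per mouse, depth limits the precision, and the 95% intervals of 10 of the 29 tested genes lay within log2 changes of -1 and 1.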
